A study of Mus musculus with 4 samples.

Results

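The genes described here are 10 of the fatty acid desaturases and elongases on a mouse expression array: Scd1, Scd2, Elovl3, Elovl6, Fads1, Fads2, Elovl2, Elovl5, Fads3 and Fads6. Other genes of the same families, such as Elovl1 and Scd3, are on the array and are given apart from these 10. The 10 were chosen by family and symbol, with earlier results of these data known. A probe was taken where its gene name, or the gene of its RefSeq accession, was one of these 10. They make up 10 of the 31709 genes and 12 of the 39429 probes on the array, Fads2 and Fads6 having 2 probes each. Liver RNA came as 4 samples from male IlrunKO mice, which lack Ilrun throughout the body, and 4 samples from male wild-type (WT) mice. Both groups were C57BL/6, were kept on chow and had been fasted for 4 h. Each of 4 two-colour Agilent arrays carried 1 IlrunKO and 1 WT sample, with IlrunKO labelled by Cy5 (red) on arrays 1 and 2 and by Cy3 (green) on arrays 3 and 4. The labels call the samples biological replicates. Pooling of mice, their age and the deleted segment of Ilrun were details not given in the sources used here.

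Desaturases place a double bond in a fatty acyl-CoA, and elongases carry out the first and rate-setting step of the cycle that lengthens it. In liver, stearoyl-CoA desaturases and the elongases of saturated chains turn newly made palmitate into stearate and oleate, the main acyl chains of exported and stored triglyceride. The FADS desaturases and the elongases of polyunsaturated chains turn the dietary linoleate and alpha-linolenate into arachidonate, eicosapentaenoate and docosahexaenoate for membrane phospholipids and signalling lipids. Many of these genes are known targets of SREBP-1c, LXR and PPARalpha, and polyunsaturated fatty acids repress several of them.

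Values are log2 ratios of IlrunKO over WT, 1 per array, or log2 intensities of a single channel, as stated. A gene is said to fall or rise where limma, fitted to all genes with a genotype and a dye term, gave a Benjamini-Hochberg adjusted p under 0.05. Intensity depends on the probe, so levels are compared between samples at 1 probe and not between genes. The main results turn on the following probes, each printed as the first 30 of its 60 bases as deposited, with the position of the whole probe on mm9. No base within them is singled out, so all letters are in lower case.
Scd1 (chr19:44469387-44469446): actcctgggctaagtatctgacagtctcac
Elovl3 (chr19:46209762-46209821): ggcctggtaggcgcttaataaatgtctttt
Fads1 (chr19:10270530-10270589): gagaatataggaacatgcccggagagacct
Fads2, brighter probe (chr19:10137760-10137819): tttagctgttgtgttaacatttcctacaga
Fads2, dimmer probe (chr19:10163229-10163288): agctggatggctgcaacatgactatggcca
Elovl5 (chr9:77832205-77832264): ctcaatacaaaaattataacatttgatagt
Fads3 (chr19:10132641-10132700): taaaatgacacggtgagcatagcatgtttt

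In each channel, 60.0% to 67.3% of all probes exceeded background clearly, and all arrays shared 1 slide. The 2 Ilrun probes stood at -4.21 ± 0.24 and -2.15 ± 0.34 (SD, n = 4), with every IlrunKO sample below every WT sample. All 10 hepatocyte markers were above background in all 8 channels; none passed the test, 6 had an unadjusted p under 0.05 in limma and 8 lay below 0. Their summed intensity ran from 753700 to 1198000 in IlrunKO and from 960600 to 1280000 in WT. Over all genes tested, 20.5% had an unadjusted p under 0.05 in limma and 50.6% lay below 0. Of 10 adipocyte markers, Adipoq, Lep and Plin1 were not above background in any channel. Cfd (3.82) and Adrb3 (1.04) rose among the 7 tested, whose median was 0.22 and of which Fabp4 lay below 0 at -0.11. The summed intensity of all 10 adipocyte markers ran from 11820 to 16470 in IlrunKO and from 7873 to 10030 in WT. Array 1 stood apart for Kupffer cell markers: the 11 genes averaged -0.21 there and 0.94, 0.62 and 0.59 on arrays 2 to 4, and their summed intensity ran from 36460 to 55210 in IlrunKO and from 28480 to 45270 in WT. None of the 11 passed in limma and 5 had an unadjusted p under 0.05. All 9 stellate cell markers lay below 0, of which 7 had an unadjusted p under 0.05 and none passed, with sums of 13050 to 19580 in IlrunKO and 18190 to 22060 in WT. Of the markers of brown adipocytes, skin, endothelium and cholangiocytes none passed (unadjusted p under 0.05 in 2, 1, 2 and 1). Of the 4 tested for T and natural killer cells, Nkg7 fell and 2 had an unadjusted p under 0.05. The other of these 2 was Cd3d, at 0.23. The median of the 4 was -0.01, with 2 below 0 and 2 above. The part of these marker shifts in the results below was not tested. In whole liver, fewer cells of a type and less RNA per cell cannot be told apart.

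All 12 probes of the 10 genes were well above background in all 8 channels. Of the 10 genes, Fads1 fell and none rose, against 0.656% of all 19672 genes tested that fell and 0.717% that rose. Without adjustment, limma gave 6 genes a p under 0.05 on the lower side (9.87% of all genes) and 1, Fads3, on the higher side (10.6% of all genes). The ratio was below 0 on all 4 arrays for Scd1, Elovl3, Elovl6, Fads1 and Fads2, 5 of the 10 genes, against 11.6% of all genes measured on every array. In the same 5 genes every IlrunKO channel lay below every WT channel, which held for 4.18% of all genes. Fads3 alone among the 10 had every IlrunKO channel above every WT channel, as did 4.81% of all genes. The 10 genes were chosen with earlier results of these data known, so the shares beside their counts are for description only. The median of the 10 genes was -0.45 and that of all genes tested was -0.0014. By array, the median of the 10 genes was -0.19, -0.30, -0.76 and -0.37 on arrays 1 to 4.

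**Figure D1:**
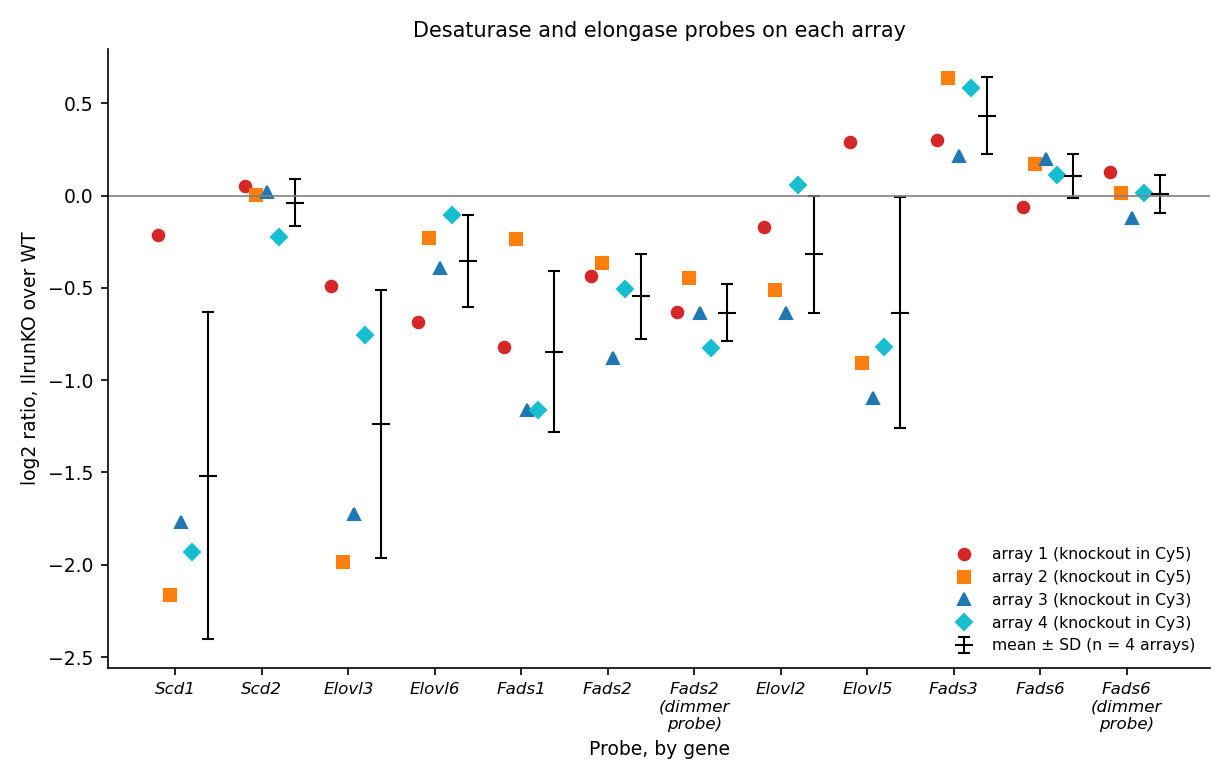
Log2 ratio of IlrunKO over WT (vertical axis) for the 12 probes of the 10 genes (horizontal axis), with 1 marker per array and the mean ± SD over 4 arrays in black. Scd1 and Elovl5 show array 1 apart from the other 3, and the Fads3 markers lie above 0 on every array.

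Scd1 encodes the main stearoyl-CoA desaturase of adult liver, which forms oleate and palmitoleate. Its channel level was 14.47, 15.42, 15.11 and 15.39 (log2 intensity) in the WT samples of arrays 1 to 4. It was 14.26, 13.26, 13.34 and 13.46 in the IlrunKO samples. The groups did not overlap, but on array 1 both samples lay near the middle, with the lowest WT and the highest IlrunKO level. The ratio was therefore -0.21 on array 1 and -2.16, -1.77 and -1.93 on arrays 2 to 4. Its mean of -1.52 ± 0.89 (SD, n = 4), or 2.86-fold lower, was the largest among the 10 genes, with a 95% interval of -2.34 to -0.69. It missed the threshold, with an adjusted p of 0.0993 in limma. The fits without 1 array, here and at the genes below, kept the dye term. Their spread between samples came only from the 2 kept arrays that share a dye orientation, and their estimate is not the plain mean. A pass in such a fit is therefore no measure of agreement among all arrays kept. Without array 1 the ratio was -2.01 with an adjusted p of 0.00937, and without array 2 it was -1.03 with an adjusted p of 0.0202. Without array 3 or array 4 it was -1.56 or -1.48 and missed the threshold (adjusted p = 0.294 and 0.249 in limma).

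Scd1 has close relatives in a cluster on chromosome 19, and 1 probe assigned to Scd3 also lists the accession of Scd1. That probe gave 0.10, -1.24, -0.96 and -1.27 on arrays 1 to 4, a mean of -0.84 ± 0.65 (SD, n = 4) with an adjusted p of 0.144 for Scd3. Array 1 again stood apart from the other 3. The remaining 2 probes of Scd3 gave means of 0.00 and 0.16, with adjusted p of 0.992 and 0.294 over all probes. The signal of the brightest Scd3 probe cannot be assigned to Scd3 rather than to Scd1. Scd4 had a ratio of -0.03 and an adjusted p of 0.857, and was near background in several channels.

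Scd2 encodes the stearoyl-CoA desaturase best known from brain and from newborn tissues, and its probe lies 88.4 kb from that of Scd1 on mm9. The WT levels were 7.40, 7.60, 7.75 and 7.95, and the IlrunKO levels were 7.45, 7.61, 7.77 and 7.73. The groups overlapped almost fully. The mean ratio of Scd2 was -0.04 ± 0.13 (SD, n = 4), with a 95% interval of -0.19 to 0.12 and an adjusted p of 0.778 in limma. The interval of Scd2 lay wholly above that of Scd1, although no test of that difference was made.

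Elovl3 encodes an elongase of saturated and monounsaturated chains that is known from skin and brown fat and that varies with the time of day in liver. WT levels were 12.65, 13.26, 12.75 and 12.78, and IlrunKO levels were 12.15, 11.27, 11.02 and 12.02. Every IlrunKO sample was below every WT sample, with arrays 1 and 4 showing the smaller gaps. The ratios of -0.49, -1.98, -1.72 and -0.76 gave a mean of -1.24 ± 0.73 (SD, n = 4), or 2.36-fold lower. Limma gave an adjusted p of 0.116 with all arrays and of 0.0404 without array 1, where the ratio was -1.61. Without array 2, 3 or 4 Elovl3 missed the threshold in limma (adjusted p = 0.144, 0.341 and 0.2). Among the 5 brown fat markers, Ucp1 and Dio2 were not above background in any channel, while Cidea stood at 0.41, Cox8b at 0.26 and Ppargc1a at -0.0034 (adjusted p = 0.101, 0.0769 and 0.990). Summed over all 5 markers, intensity ran from 910.6 to 1415 in IlrunKO and from 836.8 to 1178 in WT. The part of these markers in the Elovl3 result was not tested.

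Elovl6 encodes the elongase that turns palmitate into stearate. WT levels were 11.06, 10.58, 10.89 and 10.58, and IlrunKO levels were 10.38, 10.35, 10.50 and 10.47. The groups did not overlap, and the 4 IlrunKO samples lay within 0.149 of each other while WT samples spanned 0.485. Array 1 had the widest gap of any array here, unlike Scd1 and Elovl3. The ratios of -0.68, -0.23, -0.39 and -0.11 averaged -0.35 ± 0.25 (SD, n = 4). Limma gave Elovl6 an adjusted p of 0.15.

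**Figure D2:**
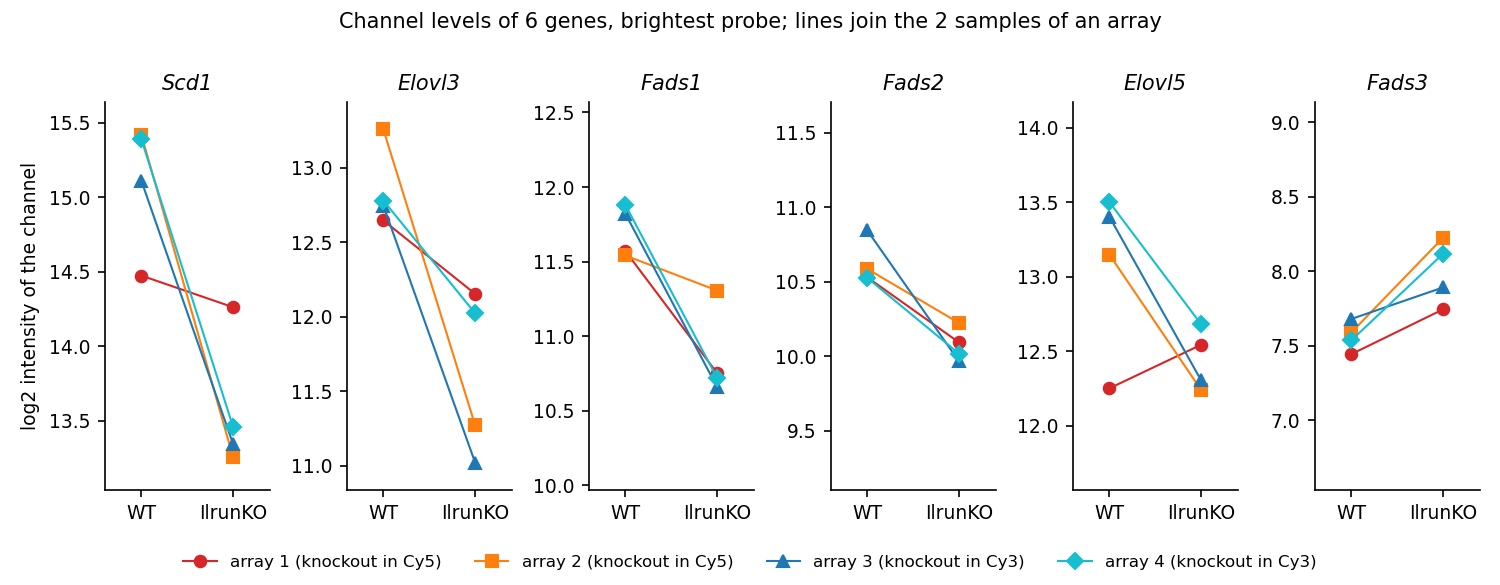
Log2 intensity of the WT and IlrunKO channels (vertical axis, the same span in each panel) at the brightest probe of 6 genes, with lines joining the 2 samples of an array. Scd1 and Elovl5 have a WT sample on array 1 well below the other 3 WT samples, whereas Fads1 has 1 IlrunKO sample, on array 2, near the WT levels.

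Fads1 encodes the desaturase that forms arachidonate and eicosapentaenoate, the last desaturation on that path. The WT channels stood at 11.57, 11.54, 11.82 and 11.88 and the IlrunKO channels at 10.75, 11.31, 10.66 and 10.72 on arrays 1 to 4. The IlrunKO samples of arrays 1, 3 and 4 lay close together and that of array 2 lay higher, still below every WT sample. Fads1 fell by 0.84 on the log2 scale, 1.80-fold, with ratios of -0.82, -0.24, -1.16 and -1.16 and an SD of 0.44 (n = 4), at an adjusted p of 0.0461 in limma. The ratio averaged -0.53 on the arrays with IlrunKO in Cy5 and -1.16 on those with IlrunKO in Cy3, and the dye term had an unadjusted p of 0.0294. A dye effect and a difference between the animals of those arrays cannot be told apart. The call was lost without the dye term (adjusted p = 0.0918), and also without array 3 (0.204) or array 4 (0.162).

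Fads2 encodes the desaturase of the first and rate-limiting step from linoleate and alpha-linolenate. At its brighter probe WT levels were 10.53, 10.58, 10.84 and 10.52, and IlrunKO levels were 10.09, 10.22, 9.96 and 10.02. At its dimmer probe the level was 9.09 ± 0.08 in WT and 8.45 ± 0.17 in IlrunKO (SD, n = 4), and the ratios were -0.63, -0.44, -0.64 and -0.83. Neither probe showed overlap between the genotypes. The brighter probe, which stood for the gene, had ratios of -0.44, -0.36, -0.88 and -0.51, a mean of -0.55 ± 0.23 (SD, n = 4), and just missed the threshold in limma (adjusted p = 0.0544). The dimmer probe fell by 0.63 on the log2 scale with an SD of 0.16 (n = 4), at an adjusted p of 0.0337 in the limma fit to all probes. With Fads1, 2 of the 12 probes fell in that fit, against 0.697% of the 24373 probes tested. Averaging both Fads2 probes gave -0.59 and an adjusted p of 0.0349.

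Elovl5 encodes the elongase that acts between the Fads2 and Fads1 steps. WT levels were 12.25, 13.15, 13.40 and 13.50, and IlrunKO levels were 12.54, 12.24, 12.31 and 12.68. The WT sample of array 1 lay among the IlrunKO samples, and the other 3 WT samples lay above them all. Elovl5 had ratios of 0.29, -0.91, -1.10 and -0.82, with a mean of -0.63 ± 0.63 (SD, n = 4), and missed the threshold in limma (adjusted p = 0.188). Without array 1 the ratio was -0.93 with an adjusted p of 0.0281. Without array 2, 3 or 4 Elovl5 missed the threshold in limma (adjusted p = 0.17, 0.455 and 0.332).

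Elovl2 encodes the elongase of the longest polyunsaturated chains, on the way to docosahexaenoate. WT levels were 13.03, 13.11, 13.14 and 12.88, and IlrunKO levels were 12.85, 12.59, 12.50 and 12.93. The sample pairs of arrays 2 and 3 were separated and that of array 4 was not. The ratio of Elovl2 was -0.32 ± 0.32 (SD, n = 4), with a 95% interval of -0.66 to 0.03 and an adjusted p of 0.272 in limma.

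Fads3 lies beside Fads2, their nearest probes being 5.12 kb apart on mm9, and encodes a desaturase that acts on sphingoid bases. WT levels were 7.44, 7.59, 7.68 and 7.54, and IlrunKO levels were 7.74, 8.23, 7.89 and 8.12. All IlrunKO samples were above all WT samples, the opposite order to both Fads2 probes. Fads3 had ratios of 0.30, 0.64, 0.21 and 0.58, with a mean of 0.43 ± 0.21 (SD, n = 4). It missed the threshold in limma (adjusted p = 0.1003). Its 95% interval of 0.19 to 0.67 did not meet that of the brighter Fads2 probe, -0.74 to -0.35, although no test of that difference was made.

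Fads6, on chromosome 11, was measured by 2 probes. At the brighter probe WT levels were 9.58, 9.50, 9.15 and 8.99, and IlrunKO levels were 9.52, 9.68, 9.35 and 9.10, so the groups overlapped. The ratios were 0.11 ± 0.12 and 0.01 ± 0.10 (SD, n = 4) at the brighter and dimmer probe. Limma gave the brighter probe an adjusted p of 0.399 and a 95% interval of -0.05 to 0.26.

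RefSeq promoter windows (GRCm38.p6) were at hand for 6 of the 10 genes: Fads2, Fads3, Fads6, Elovl2, Elovl5 and Elovl6. The 250 bases before each start were searched on both strands for TCACNCCAC, a core of the sterol response element bound by SREBP, and for CCAAT, the box bound by NF-Y. TCACNCCAC was in the window of 0 of the 6 genes and in 1.05% of the 32851 mouse windows. CCAAT was in those of Fads3 and Elovl5, against 33.8% of all windows. The windows of 3 genes are shown, those of Fads2 and Fads3 because these neighbours lay on opposite sides of 0, and that of Elovl5 for its matches. Capitals mark CCAAT or its reverse complement.
Fads2 (chr19:10101504-10101753, minus strand): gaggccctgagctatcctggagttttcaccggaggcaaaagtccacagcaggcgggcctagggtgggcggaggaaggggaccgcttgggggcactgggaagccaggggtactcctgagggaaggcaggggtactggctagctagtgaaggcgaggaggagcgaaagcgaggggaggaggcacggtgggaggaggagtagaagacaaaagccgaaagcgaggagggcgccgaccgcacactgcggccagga
Fads3 (chr19:10041298-10041547, plus strand): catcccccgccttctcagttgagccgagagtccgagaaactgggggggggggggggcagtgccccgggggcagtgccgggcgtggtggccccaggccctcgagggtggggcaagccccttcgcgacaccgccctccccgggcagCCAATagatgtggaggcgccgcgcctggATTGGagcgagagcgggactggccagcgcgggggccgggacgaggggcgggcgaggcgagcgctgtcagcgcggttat
Elovl5 (chr9:77917115-77917364, plus strand): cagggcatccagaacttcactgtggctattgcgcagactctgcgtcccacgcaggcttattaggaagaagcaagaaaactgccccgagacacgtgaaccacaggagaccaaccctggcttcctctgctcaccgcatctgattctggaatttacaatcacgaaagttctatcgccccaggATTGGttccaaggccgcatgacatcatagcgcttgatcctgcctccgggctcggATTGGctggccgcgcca

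The Fads3 matches begin 106 and 78 bases before the start, 1 on each strand, and the Elovl5 matches begin 71 and 17 bases before it. No match overlapped another, and the Fads2 window held neither motif. A match of letters is a description of the window and no measure of binding.

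Other members of the same families did not pass the test. Elovl1, an elongase of saturated very long chains, had ratios of -0.06 and -0.02 at its 2 probes, with an adjusted p of 0.788 for the gene. Degs1 and Degs2, desaturases of sphingolipid synthesis, had ratios of 0.07 and -0.02 with adjusted p of 0.504 and 0.826. Elovl4, Elovl7 and Fads2b (named 4833423E24Rik in the files) did not pass the filter on background, so no ratio is read from them.

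The supply of palmitate and malonyl-CoA, the substrates of elongation, was examined in 11 genes. Fasn, the fatty acid synthase, fell by 0.66 on the log2 scale (adjusted p = 0.0346), and it was 1 of 11 genes that fell while none rose. Limma gave 7 of the 11 an unadjusted p under 0.05, against 20.5% of all genes, and their median ratio was -0.24. Acaca, which makes malonyl-CoA in the cytosol, stood at -0.24 (adjusted p = 0.102) and Acss2, which makes acetyl-CoA from acetate, at -0.25 (adjusted p = 0.104). The Fasn ratios were -0.43, -0.27, -1.07 and -0.88, lower on arrays 3 and 4 than on arrays 1 and 2, as were those of Fads1. Arrays 3 and 4 are those with IlrunKO in Cy3, so a dye effect and a difference between animals cannot be told apart. The dye term takes up that split, which is therefore not in the spread behind the Fasn p. The 10 hepatocyte markers divided by array in the same way, with means of 0.09, 0.18, -0.59 and -0.52 on arrays 1 to 4, and their part in the Fads1 and Fasn results was not tested.

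The other enzymes of the elongation cycle, with the cytochrome b5 system that passes electrons to desaturases, were 12 genes with a median ratio of 0.00. None passed in limma and 2 of the 12 had an unadjusted p under 0.05, against 20.5% of all genes. The 2 were Cyb5a at 0.27 and Hsd17b12, the ketoacyl reductase of the cycle, at 0.22, both above 0. Cyb5r3, a reductase of cytochrome b5, stood at -0.10.

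None of 6 acyl-CoA synthetase genes passed in limma, and 1 had an unadjusted p under 0.05, against 20.5% of all genes. That gene was Acsl5 at -0.38 (adjusted p = 0.121). Slc27a5 and Acsl3 stood at -0.19 and -0.12. None of 8 genes of the peroxisomal step that completes docosahexaenoate passed, and 2 had an unadjusted p under 0.05, against 20.5% of all genes. The 2 were Scp2, a thiolase and sterol carrier, at -0.34 with an adjusted p of 0.0505, and Acaa1a, a thiolase, at 0.21. Abcd2 followed at -0.13. None of 6 acyltransferases and lipases that handle polyunsaturated chains passed. An unadjusted p under 0.05 was found for 1 of the 6, Mboat7 at -0.16, against 20.5% of all genes. Pla2g6 and Lclat1 stood at 0.23 and 0.10.

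None of 20 regulators of these genes passed in limma, and 9 had an unadjusted p under 0.05, against 20.5% of all genes. The median of the 20 was 0.04. Srebf1, which encodes SREBP-1 and was singled out after its values were seen, had ratios of -0.10, -0.16, -0.14 and -0.29, below 0 on every array, with an adjusted p of 0.166. Pparg, best known from adipocytes, stood at 0.69 (adjusted p = 0.0993), Tmem97 at 0.35 (0.0988) and Ppara, a sensor of fatty acids, at -0.18 (0.131). None of 19 SREBP targets of sterol synthesis and uptake passed and 2 had an unadjusted p under 0.05. Their median was 0.23, on the other side of 0 from that of the desaturases and elongases, and their array means were -0.04, 0.92, -0.29 and 0.17. The 2 with an unadjusted p under 0.05 were Hmgcs1 at 0.57 and Msmo1 at 0.71.

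**Figure D3:**
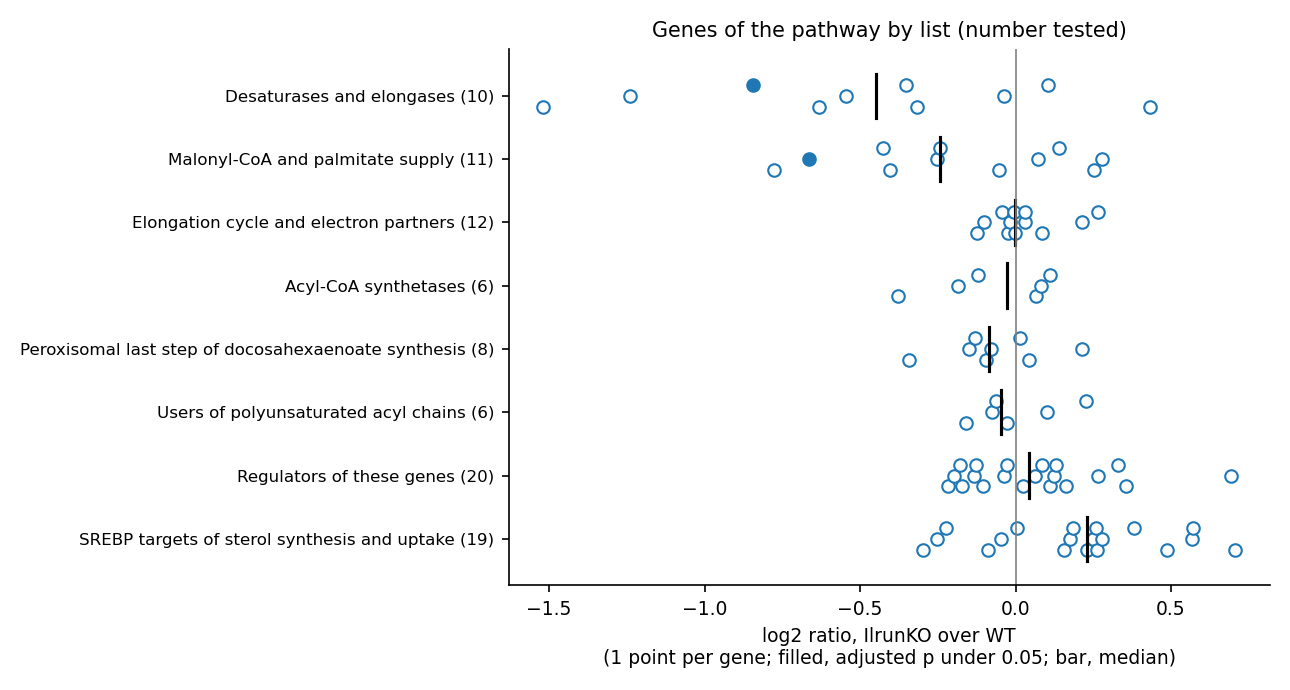
Log2 ratio of IlrunKO over WT (horizontal axis) for each tested gene of 8 lists, with filled points for an adjusted p under 0.05 in limma and a bar at the median. The filled points are Fads1 and Fasn; medians run from -0.45 for the desaturases and elongases to 0.23 for the sterol genes.

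The genes whose 4 array ratios came closest to those of Fads1 were Nkg7, Fasn and Inhba, with root mean square differences of 0.240, 0.243 and 0.248 over 4 arrays. Nkg7, a gene of natural killer and cytotoxic T cells, fell by 0.76 on the log2 scale (adjusted p = 0.0301). Inhba, a subunit of activins, fell by 0.82 on the log2 scale (adjusted p = 0.0346). These were picked for their likeness, which is a description of 4 arrays.

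Over 21 alternatives of processing, threshold or arrays kept, the Fads1 ratio ran from -0.99 to -0.70 and passed in 15. The threshold of 0.1 and Aquantile left the Fads1 fit as reported, so those passes were fixed in advance. Dropping the filter, or asking for all 8 channels, changed the set of genes tested and not the Fads1 ratio. Array weights ran only from 0.991 to 1.01. Limma gave adjusted p of 0.04715, 0.04512 and 0.04615 in these settings, so their passes add little to the fit as reported. Fads2 ran from -0.65 to -0.45 and passed in 7, Scd1 from -2.01 to -1.03 and passed in 6, and Elovl3 from -1.61 to -0.87 and passed in 3. The passes of Fads2 and Scd1 include that at the looser threshold of 0.1, with the fit as reported. Elovl5, Elovl6 and Fads3 each passed in 1. Scd2, Fads6 and Elovl2 passed in none of the 21. The sign of the ratio held in every alternative for 9 of the 10 genes, the exception being Scd2, which had 0.02 without array 4.

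**Figure D4:**
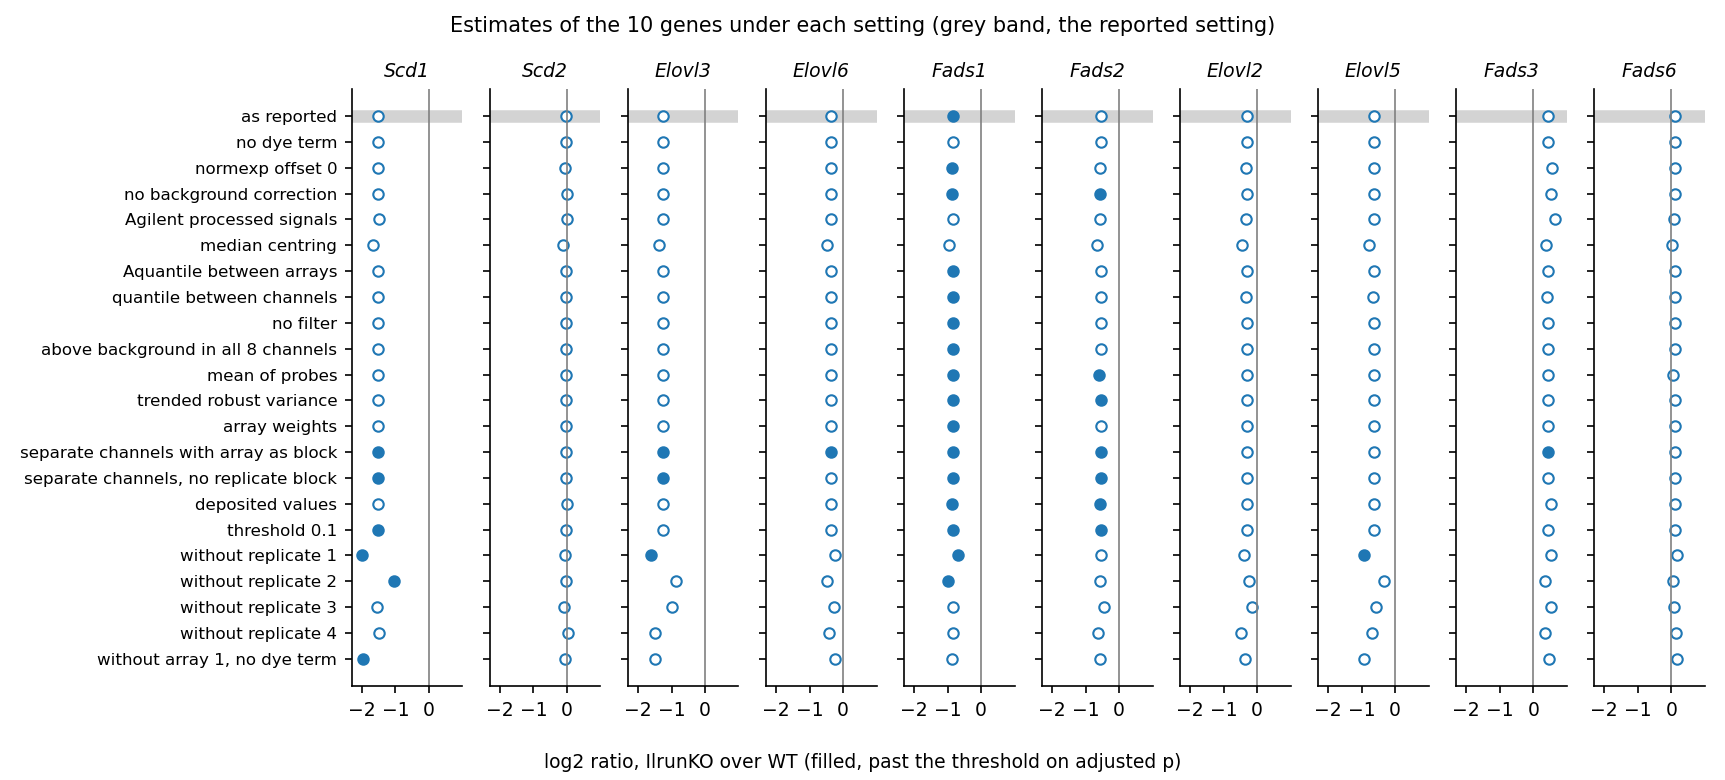
Log2 ratio of IlrunKO over WT (horizontal axes) for the 10 genes under the reported setting (grey band) and 21 alternatives (rows), filled where the adjusted p passed the threshold. Fads1 is filled in the reported setting and 15 alternatives; Scd1 keeps ratios from -2.01 to -1.03 and is filled in 6 alternatives.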

How the data were processed

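The authors deposited, per the file headers, Agilent Feature Extraction 10.10.1.1 output: raw and processed intensity of each spot, and the log10 of Cy5 over Cy3. The authors also deposited values that on checking are log2 ratios of IlrunKO over WT (over spots above background, its r with the scanner's ratio of Cy5 over Cy3 was 0.956, 0.943, -0.942 and -0.951 on arrays 1 to 4, and its column medians were -0.039, -0.043, 0.038 and 0.035). The submitters' processing notes name limma for it, with no version or settings. The values were used as an alternative.

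Here, mean and local background intensity of 44397 spots were corrected with normexp (offset 50) and normalised by loess within arrays in limma 3.58.1 (R 4.3.3, data.table package version 1.17.8), with 1377 control spots at weight 0. Spots marked as outliers were left out (224 to 381 per array) and none was saturated. Probes were named by RefSeq accession (26055), by symbol (4125) or by the file (9249), and the brightest probe stood for a gene. A gene was tested if 3 or more of its 4 IlrunKO or of its 4 WT channels were well above background and it was measured in both dye orientations, which held for 19672 genes. Ratios were fitted with genotype and dye terms (lmFit, eBayes), two-sided, with 2 residual and 2.83 prior degrees of freedom. The median standard error of 0.0567 reflects the number of arrays. Channel levels used loess and Aquantile. The fit was tested on simulated data. Gene lists are described by counts and medians. Genes named were Ilrun, all members with every probe, their families, list genes that passed with the 3 of smallest p, and the 3 genes most like each member that passed; 1 gene that the rule names is not reported here, and Srebf1 was added outside the rule. The members, the lists and the rule were chosen with earlier results of these data known. Replicates are samples the labels call biological replicates. The p-values measure the spread between them within each dye orientation, combined with a prior variance taken from all genes. A difference between the dye orientations goes into the dye term and not into that spread. The SDs given are over all 4 arrays and do include it. The files' coordinates are mm9, for which no annotation was used, so exons and introns were not assigned; promoter windows are RefSeq's, on another build.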

Additional observations from a re-analysis of the deposited data

Results flagged for a closer look

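Dixon's test for a sample apart from its group was run on 36 groups of 4 values (the array ratios, the IlrunKO channels and the WT channels of the 12 probes), and chance flags about 1 in 20 such groups. It picked out 2. For Fads1, the IlrunKO sample of array 2 lay at 11.31 above the other 3, its gap being 0.855 of the range, above the 95% critical value for 4 values. For Scd2, the ratio of array 4 lay at -0.22 below the other 3, with a gap of 0.84 of the range. Array 1 at Scd1 and Elovl5 did not pass this test.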

How the results depend on the processing

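The median of the 10 genes stayed between -0.56 and -0.37 in all 21 alternatives, 2 of them chosen after seeing the data (quantile normalisation between channels, and leaving out array 1 together with the dye term). The counts moved more. The count of the 10 genes that fell was 1 as reported, and the count of all genes that passed was 270. Without the dye term 0 of the 10 fell. Without background correction 2 of the 10 fell and 441 of all genes passed. With Agilent's processed signals these counts were 0 and 82, and with median centring in place of loess, which moved the median of all genes to -0.05, they were 0 and 1. With the mean of probes, or with a trended robust variance, 2 of the 10 fell. In separate-channel models, which take both samples of an array as values of their own, these counts were 5 and 2491 with the array as a block, where Fads3 made 1 of the 10 that rose, and 4 and 598 with no replicate block. The deposited values gave 2 and 450, and a threshold of 0.1 gave 3 and 1119. Leaving out array 1 together with the dye term gave 1 of the 10, which was Scd1 (adjusted p = 0.0194) and not Fads1 (0.188), and 6 of all genes. Leaving out 1 array at a time gave 0 (without array 3 or 4) to 4 (without array 1) of the 10, and 1 to 464 of all genes. These fits kept the dye term, so their spread between samples came only from the 2 kept arrays that share a dye orientation. Scd2 ran from -0.0987 (without array 3) to 0.0227 (without array 4). Of all genes that passed, 47.8% were lower as reported, 35.8% without array 1 and 100% (1 gene) with median centring, without array 3 or without array 4. Aquantile between arrays leaves ratios as they are by construction. The cause of these moves was not tested. The number of arrays limits the precision of each ratio.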
